A study of Mus musculus with 49 samples.

Results

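The 34 genes described here encode proteins of the synaptic vesicle and of the machinery that releases it, chosen as a list of known presynaptic genes. Each was taken from the row of the deposited table that carries its symbol, and of several such rows the one with the highest mean. All 34 were found among the 42521 rows, and all 34 were among the 16029 rows that passed the filter on mean level. RNA was measured in hippocampus of C57BLKS/J mice at 3 months of age, 1 library per mouse. There are 49 libraries in 6 groups. HFD-C has 9 of them, and 8 each belong to HFD-F, FFD-C, FD-C, CD-F and CD-C, with 4 per group marked XX in their titles and the rest XY. Because the series title concerns obese mothers, their offspring and a fibre-rich diet, the first part of each code was taken to name what the dam ate and the final letter what the offspring ate. No label explains the codes, and no other genotype, treatment or dose is given. Libraries are numbered in order of listing within a group, and a number links no libraries of different groups.

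Synaptic vesicles are filled with transmitter by vesicular transporters, docked and primed at the active zone, fused when SNARE proteins zip together after calcium binds a synaptotagmin, and then recovered by endocytosis. In the hippocampus most of these vesicles hold glutamate, loaded by the transporter that Slc17a7 encodes, and a smaller share hold GABA, loaded by the product of Slc32a1. Tissue RNA reports the cell bodies that transcribe these genes, and in bulk samples fewer cells of a type and less RNA per cell cannot be told apart. The hippocampal markers Prox1, Wfs1 and Rgs14 were present in the libraries. Of 10 thalamus and hypothalamus markers 7 passed the level filter, with Tcf7l2 at a mean of 66.3 FPKM and Calb2 at 92.1 FPKM in CD-C and Hcrt, Pmch and Agrp at or near 0, and all 7 neocortex markers passed it. In CD-C the summed level of the thalamus and hypothalamus list ran from 148.8 to 282.4 FPKM, that of the neocortex list from 118.1 to 227.6 FPKM and that of the dentate granule cell list from 155.5 to 413.5 FPKM.

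The clearest differences lay with the offspring code F, in 5 genes of different steps of the cycle, and the promoters of 4 of these are shown because their proximal sequence was available. The sequences are the 250 bases before the start set for each gene in the RefSeq promoters of GRCm38.p6. They are printed 5′ to 3′ on the strand of the gene, with GC boxes (GGGCGG) and cyclic AMP response elements (TGACGTCA) in capitals, either strand counted. The window of Ppfia3 is chr7:45367020-45367269, that of Dnm1 chr2:32353330-32353579, that of Cplx1 chr5:108550028-108550277 and that of Syn1 chrX:20920919-20921168, all on the minus strand. The Dnm1 window reaches into the gene, whose RefSeq entry ends at 32353349.
Ppfia3: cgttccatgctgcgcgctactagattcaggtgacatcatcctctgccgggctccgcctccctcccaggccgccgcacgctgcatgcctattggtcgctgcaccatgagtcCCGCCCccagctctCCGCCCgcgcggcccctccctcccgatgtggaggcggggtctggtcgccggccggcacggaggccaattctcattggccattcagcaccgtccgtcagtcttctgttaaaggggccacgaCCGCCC
Dnm1: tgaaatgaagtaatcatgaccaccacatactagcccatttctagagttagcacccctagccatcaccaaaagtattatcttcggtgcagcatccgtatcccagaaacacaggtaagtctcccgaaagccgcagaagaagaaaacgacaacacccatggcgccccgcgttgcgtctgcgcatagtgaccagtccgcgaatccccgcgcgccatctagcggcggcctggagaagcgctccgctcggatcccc
Cplx1: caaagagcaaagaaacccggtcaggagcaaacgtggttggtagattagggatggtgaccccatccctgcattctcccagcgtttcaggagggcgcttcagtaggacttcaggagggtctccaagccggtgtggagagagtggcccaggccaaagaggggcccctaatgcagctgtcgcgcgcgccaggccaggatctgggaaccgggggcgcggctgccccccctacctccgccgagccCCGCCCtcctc
Syn1: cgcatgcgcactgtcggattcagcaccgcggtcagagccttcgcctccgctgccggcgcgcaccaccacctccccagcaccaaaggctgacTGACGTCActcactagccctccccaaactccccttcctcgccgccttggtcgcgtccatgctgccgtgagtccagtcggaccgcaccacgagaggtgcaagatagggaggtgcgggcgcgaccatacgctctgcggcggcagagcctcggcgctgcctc
The window of Ppfia3 holds 3 GC boxes and that of Cplx1 holds 1, the window of Syn1 holds 1 response element, and that of Dnm1 holds neither. Their GC content was 67.6% for Ppfia3, 55.6% for Dnm1, 64.8% for Cplx1 and 68% for Syn1. The promoter table lists 28 of the 34 genes, with 36 windows. A GC box stood in 18 of these windows (50%), each of another gene, and in 32.7% of all 32851 windows of that length. The response element stood in 2 member windows (5.56%) and in 1.55% of all windows, an E-box (CACGTG) in 2 (5.56%) and in 6.02%, and a sterol response element (TCACNCCAC) in 1 (2.78%) and in 1.05%. A match is a run of letters and not a measured binding site. Vamp2 has no entry.

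In level, the module spanned more than 2 orders of magnitude. FPKM, the unit of the table, is scaled for transcript length and library size, so that levels of different genes can be set side by side roughly. Rab3a and Rims1 stand on 2 rows each. For both, the row with the higher mean was taken, and values of the second row are marked as such. The 2 rows of Rims1 had means of 99.7 and 91.8 FPKM. The highest were Syt1, the fast calcium sensor of release, with a mean of 3128 FPKM over the 49 libraries, Dnm1, the GTPase that pinches vesicles off the membrane, with 2842 FPKM, and Snap25, a SNARE protein of the plasma membrane, with 2540 FPKM. The glutamate transporter Slc17a7 followed with 1420 FPKM, then the vesicle membrane protein Syp with 824 FPKM. The lowest were the active zone gene Rims2 with 21.4 FPKM, the SNARE gene Stx1a with 17.2 FPKM and the synaptobrevin gene Vamp1 with 10.1 FPKM. Between paralogs, Vamp2 had a mean of 357 FPKM against the 10.1 FPKM of Vamp1, and Slc17a7 stood at 1420 FPKM against 53.2 FPKM for Slc17a6, a glutamate transporter best known from subcortical neurons.

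The members differed in how much they varied between mice. Syngr3, a vesicle membrane protein, had the narrowest range, with a ratio of 1.49 between the highest and the lowest of the 49 libraries, followed by Ppfia3 with 1.61 and Vamp2 with 1.82. The widest ratios were those of Slc17a6 with 42, Cplx2 with 19.6 and Rims1 with 19.6. Slc17a6 varied continuously, while Cplx2 and Rims1 fell onto separate levels that are described further on.

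The offspring code was compared first in mice of CD dams. In CD-F against CD-C, 5 of the 34 genes were higher and 0 lower at an adjusted p under 0.05 (limma, Benjamini-Hochberg over all 16029 rows). Over all rows, 4.54% were higher and 8.88% lower (13.4% in either direction). The higher made up 14.7% of the members against 4.54% of the rows. In either direction the shares were close, with 14.7% of the members and 13.4% of the rows. The 5 genes were Ppfia3, Dnm1, Cplx1, Syn1 and Vamp2, all higher in CD-F by 1.18-fold to 1.32-fold. Of the 34 genes, 29 had a difference above 0, against 52.7% of all rows. The median difference of the members was 0.18 on the scale of log2(FPKM + 0.5), beside 0.02 for all rows. At an unadjusted p under 0.05 stood 7 of 34 members, a smaller share than the 26.8% of all rows.

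Ppfia3 encodes liprin-α3, a scaffold of the active zone. In CD-C its level was 429, 453, 435, 386, 433, 461, 430 and 454 FPKM in libraries 1 to 8, and in CD-F 588, 564, 479, 622, 493.3, 455, 464 and 551 FPKM. All 8 CD-F libraries lay above the CD-C mean, and the groups overlapped only in that the lowest CD-F library, at 455 FPKM, was below the highest of CD-C. The group means were 435 ± 23.3 FPKM (SD, n = 8) in CD-C and 527 ± 62.3 FPKM (SD, n = 8) in CD-F. This was a difference of 0.27 on the log2 scale (SE 0.0598), 1.205-fold, with a limma adjusted p of 0.00185.

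Dnm1 encodes dynamin 1, the neuronal dynamin of vesicle recovery. In CD-C it was measured at 2530, 2935, 1784, 2608, 2453, 1946, 2532 and 2785 FPKM, and in CD-F at 3209, 3672, 2231, 3768, 3024, 3214, 2892 and 3856 FPKM. CD-C libraries 3 and 6 were the lowest of their group, CD-F library 3 was the only one of 8 below the CD-C mean, and the ranges overlapped. Dnm1 was higher in CD-F by 0.40 on the log2 scale (SE 0.12, 1.32-fold, limma adjusted p 0.0198), the widest difference of the 5.

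Cplx1 encodes complexin 1, which binds the assembled SNARE complex and holds fusion ready for the calcium signal. Its level ran from 310 to 597 FPKM with a median of 452 in CD-C, and from 514 to 621 FPKM with a median of 577 in CD-F. All 8 CD-F libraries lay above the CD-C mean, and the ranges overlapped because CD-C libraries 2 and 6 were high. The difference was 0.35 on the log2 scale (SE 0.115, 1.28-fold, limma adjusted p 0.0326).

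Syn1 encodes synapsin I, which tethers vesicles in the reserve pool. Its lowest, median and highest libraries were 263, 350 and 365 FPKM in CD-C and 301, 419 and 483 FPKM in CD-F. In 7 of 8 CD-F libraries the level was above the CD-C mean, and the ranges overlapped. The log2 difference was 0.29 (SE 0.0928, 1.22-fold, limma adjusted p 0.0317). The other synapsin genes did not pass, with 0.13 for Syn2 and -0.05 for Syn3.

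Vamp2 encodes synaptobrevin 2, the SNARE protein of the vesicle. Its libraries ran from 300 to 356 FPKM in CD-C, median 334, and from 316 to 487 FPKM in CD-F, median 398. Here too 7 of 8 CD-F libraries were above the CD-C mean, with overlapping ranges. Vamp2 was higher by 0.24 on the log2 scale (SE 0.0807, 1.18-fold, limma adjusted p 0.043), the least firm of the 5 calls.

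**Figure D1:**
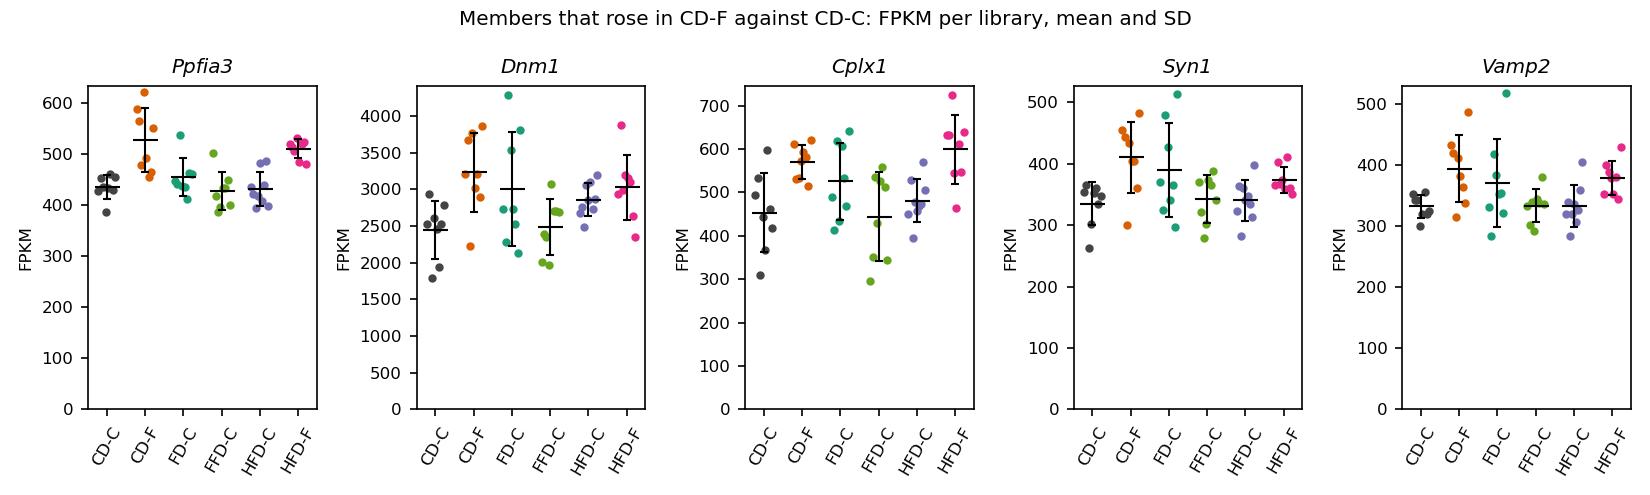
FPKM of Ppfia3, Dnm1, Cplx1, Syn1 and Vamp2 in each library of the 6 groups, with points for libraries and black bars for the mean and SD. Ppfia3 lies between 481 and 531 in HFD-F, above the CD-C range of 386 to 461, whereas the Dnm1 ranges of CD-C and CD-F overlap.

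Single libraries decided several of these calls. Ppfia3 passed whichever of the 16 libraries of the comparison was left out, with adjusted p between 0.000429 and 0.00847. Sample titles carry a prefix that may mark a litter or a dam, which no label states, with 4 prefixes in CD-C and 3 in CD-F. On means per prefix no member passed, and Ppfia3 differed by 0.275 (limma adjusted p 0.0585). The number of members higher was 1 without CD-C library 3 or CD-F library 4, 2 without CD-C library 4 or CD-F library 1, and 3 without CD-C library 5 or CD-F library 2, 5 or 8. Smaller changes of this number are not listed. Of the 16 libraries left out in turn, 11 cost Vamp2 its call, 6 that of Cplx1, 6 that of Syn1 and 3 that of Dnm1.

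Of the 29 members that did not pass, some had differences as large as those of the called genes with a wider SE, others lay near 0, and 5 were below 0. Among the vesicular transporters, Slc17a7 differed by 0.28 (SE 0.123, limma adjusted p 0.124), with libraries from 1162 to 1564 FPKM in CD-C and from 952 to 2395 FPKM in CD-F. Without CD-F library 3, the lowest, Slc17a7 passed at 0.38 (limma adjusted p 0.0208). Slc32a1 differed by 0.35 (SE 0.15, limma adjusted p 0.123), with libraries from 53.4 to 80.1 FPKM in CD-C and from 67.6 to 116 FPKM in CD-F. Slc17a6 differed by 0.05.

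None of the 6 genes grouped here as vesicle membrane or vesicle-associated passed in CD-F against CD-C. Their differences ran from -0.01 for Syngr3 to 0.31 for Syngr1, with a median of 0.18. Between these lay Sv2b with 0.23, Sv2a, the binding site of the antiepileptic drug levetiracetam, with 0.18, the synuclein gene Sncb with 0.17 and Syp with 0.09. Of the calcium sensors, Syt1 differed by 0.13 (SE 0.112) and Syt7, a slower sensor, by 0.13 (SE 0.217). In the SNARE group, Snap25 went the other way by -0.31 (SE 0.169, limma adjusted p 0.228), with libraries from 1973 to 3131 FPKM in CD-C and from 1685 to 3131 FPKM in CD-F. Stx1a differed by 0.28, Vamp1 by 0.18 and Nsf, the ATPase that takes SNARE complexes apart, by 0.23.

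In the active zone group, the scaffold gene Bsn differed by 0.30 (SE 0.17), Unc13a, which primes vesicles, by 0.19 (SE 0.131) and Pclo by 0.10. Rims2 differed by 0.05 and Erc2 by -0.04. Rims1 differed by 0.34 (SE 0.528), and by 0.07 (SE 0.17) on its second row. In the endocytosis group, beside Dnm1, the differences were 0.15 for Amph, 0.13 for the phosphoinositide phosphatase gene Synj1 and 0.12 for Sh3gl2, which encodes endophilin A1. Rab3a, the small GTPase of docked vesicles, differed by 0.16. None of these passed.

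The members differed from one another in step with the GC content of their transcripts. Across the 34 genes, the Spearman correlation between GC content and the log2 difference of CD-F against CD-C was 0.692, and across the 15175 rows with a GC value it was 0.513. Genes are not independent replicates, and all of these points come from the same 16 libraries. When the module was divided at 53% GC, a value picked after the data were seen to give parts of equal size, the 17 members at or above it had a median of 0.28, with 16 above 0 and all 5 calls. The 17 below had a median of 0.12, with 13 above 0 and 0 calls. All 5 called genes lay between 53.2% GC for Vamp2 and 60.9% for Ppfia3, and Snap25 had 38.7%.

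The libraries differed in the same respect. The slope of the log2 level on GC content, per 10% of GC and relative to the mean library, ran from -0.13 to -0.03 in CD-C with a median of -0.06, and from -0.09 to 0.46 in CD-F with a median of 0.16. It ran from -0.19 to -0.05 in HFD-C and from -0.09 to 0.18 in HFD-F. With this trend removed from every library, 0 of 34 members passed in CD-F against CD-C, while 339 rows were higher and 474 lower. The difference was then 0.14 for Ppfia3 (limma adjusted p 0.113), 0.27 for Dnm1 (0.182), 0.23 for Cplx1 (0.237), 0.15 for Syn1 (0.348) and 0.15 for Vamp2 (0.243). For Snap25 the sign turned, to 0.07. After removal, 32 of 34 members had a difference above 0 against 53% of rows, their median was 0.16 beside 0.01 for all rows, and the correlation with GC content was -0.108. The files do not tell apart a GC trend of library preparation from one of expression.

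**Figure D2:**
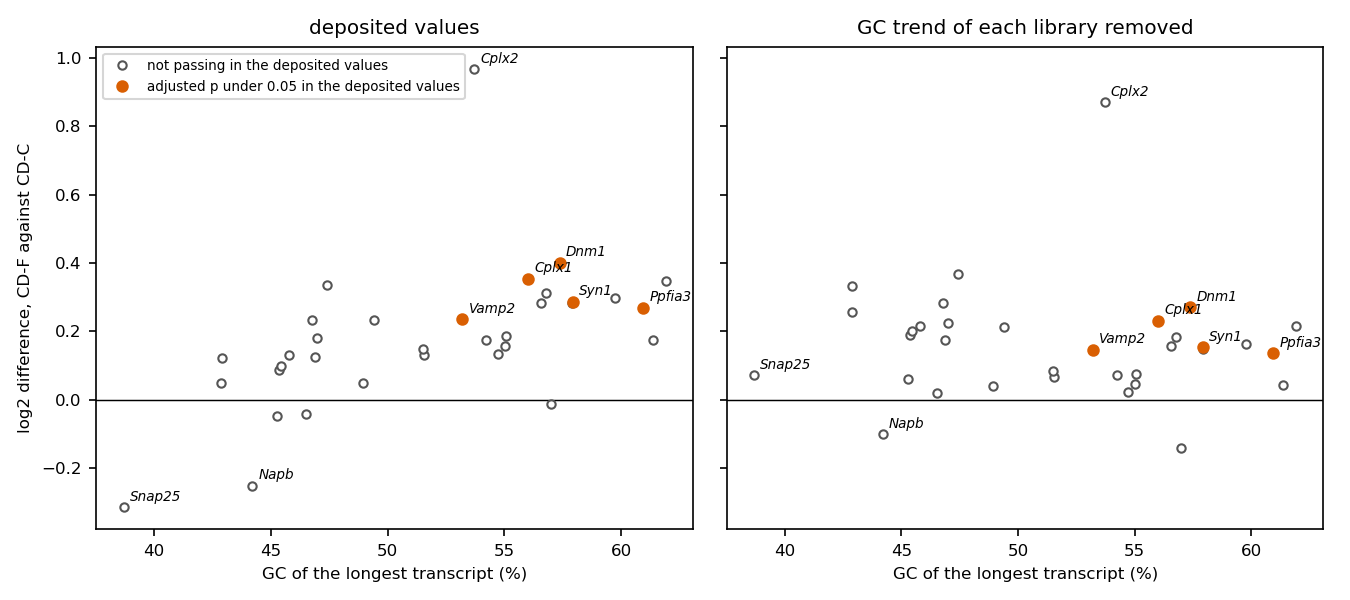
Log2 difference of CD-F against CD-C for the 34 genes against the GC content of the longest transcript in percent, from the deposited values (left) and after removal of the trend with GC in every library (right); filled points are the 5 genes that passed in the deposited values. The points rise from left to right in the left panel, with a Spearman correlation of 0.692, and not in the right one, with -0.108.

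Markers of cell types and regions were read in the same comparison. Of 11 pan-neuronal markers, 0 were higher and 1 lower in CD-F than in CD-C, with a median of -0.03, and their summed level ran from 5170 to 5923 FPKM in CD-C and from 4849 to 6818 FPKM in CD-F. Of 9 dentate granule cell markers 0 were higher and 1 lower, with a median of -0.25 and summed levels of 155.5 to 413.5 FPKM in CD-C and 205.8 to 316.3 FPKM in CD-F. Of 7 neocortex markers 0 passed, with a median of 0.27 and summed levels of 118.1 to 227.6 FPKM in CD-C and 169.2 to 270.5 FPKM in CD-F. None of the CA1, CA2 and CA3, or thalamus and hypothalamus markers passed, with medians of 0.01, -0.06 and -0.11. None of the 11 GABAergic markers passed, with a median of 0.13. Of 8 microglia markers 1 was higher, with a median of 0.19 and summed levels of 1083 to 1757 FPKM in CD-C and 1257 to 2137 FPKM in CD-F. Choroid plexus and ependymal markers, 0 of 7 called, varied most between libraries, from 48.1 to 13690 FPKM in CD-C and from 49.2 to 19340 FPKM in CD-F. Of the astrocyte, oligodendrocyte precursor, endothelial and fibroblast lists 1 marker each was higher. Of 6 liver products 5 were lower in CD-F. In 4 CD-C libraries the liver product Alb stood above 1 FPKM, at 24.3 to 50.1, and without these 4 libraries 3 members passed. The part of these markers in the members' differences was not tested.

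The same offspring code was compared in mice of HFD dams. In HFD-F against HFD-C only Ppfia3 passed, so that 1 of 34 members was higher, beside 0.362% of all rows, and 0 were lower, beside 1.31% (1.67% in either direction). Ppfia3 stood at 436, 422, 395, 419, 482, 409, 439, 486 and 398 FPKM in HFD-C libraries 1 to 9 and at 520, 514, 507, 531, 484, 520, 524 and 481 FPKM in HFD-F libraries 1 to 8. All 8 HFD-F libraries were above the HFD-C mean, and 2 HFD-C libraries, 5 and 8, reached into the HFD-F range. The means were 432 ± 33.3 FPKM (SD, n = 9) and 510 ± 18.4 FPKM (SD, n = 8), a log2 difference of 0.24 (SE 0.0581, 1.18-fold, limma adjusted p 0.0215). The call was lost without HFD-C library 6 or HFD-F library 4, and with the GC trend removed the difference was 0.14 (limma adjusted p 0.254). Of the title prefixes 3 hold libraries of both groups. With prefix as a random block the difference was 0.24 (adjusted p 0.0337), and on means per prefix 0.23 (adjusted p 0.262).

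Of the 34 members 23 had a difference above 0, against 50.1% of all rows, with a median of 0.09 beside 0.00 for all rows. At an unadjusted p under 0.05 stood 5 of 34 members, a smaller share than the 16.6% of all rows. These were Ppfia3, Cplx1 with 0.32 (SE 0.112, limma adjusted p 0.123), Slc32a1 with 0.32 (adjusted p 0.252), Unc13a with 0.29 (adjusted p 0.243) and Vamp2 with 0.19 (adjusted p 0.196). Dnm1 differed by 0.08 and Syn1 by 0.14. All 17 members at or above 53% GC had a difference above 0 with a median of 0.19, and 6 of the 17 below did, with a median of -0.03. When the library medians were set equal, 66 rows were higher and 115 lower, in place of 58 and 210, and Ppfia3 was still the only member to pass.

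Whether the difference between offspring codes itself differed between the maternal codes CD and HFD was tested as an interaction. No member passed, and 0 of 16029 rows did in limma at an adjusted p under 0.05, with 0 members and 441 rows (2.75%) at an unadjusted p under 0.05. For 30 of 34 genes the F against C difference was lower in mice of HFD dams, with a median interaction of -0.08 on the log2 scale, beside 49.2% of all rows above 0 and a median of 0.00. For Dnm1 the interaction was -0.32 (SE 0.167, 95% interval -0.66 to 0.02). For Slc17a7 it was -0.06 (SE 0.172, 95% interval -0.41 to 0.29). A p that misses the threshold does not show that the differences were alike.

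**Figure D3:**
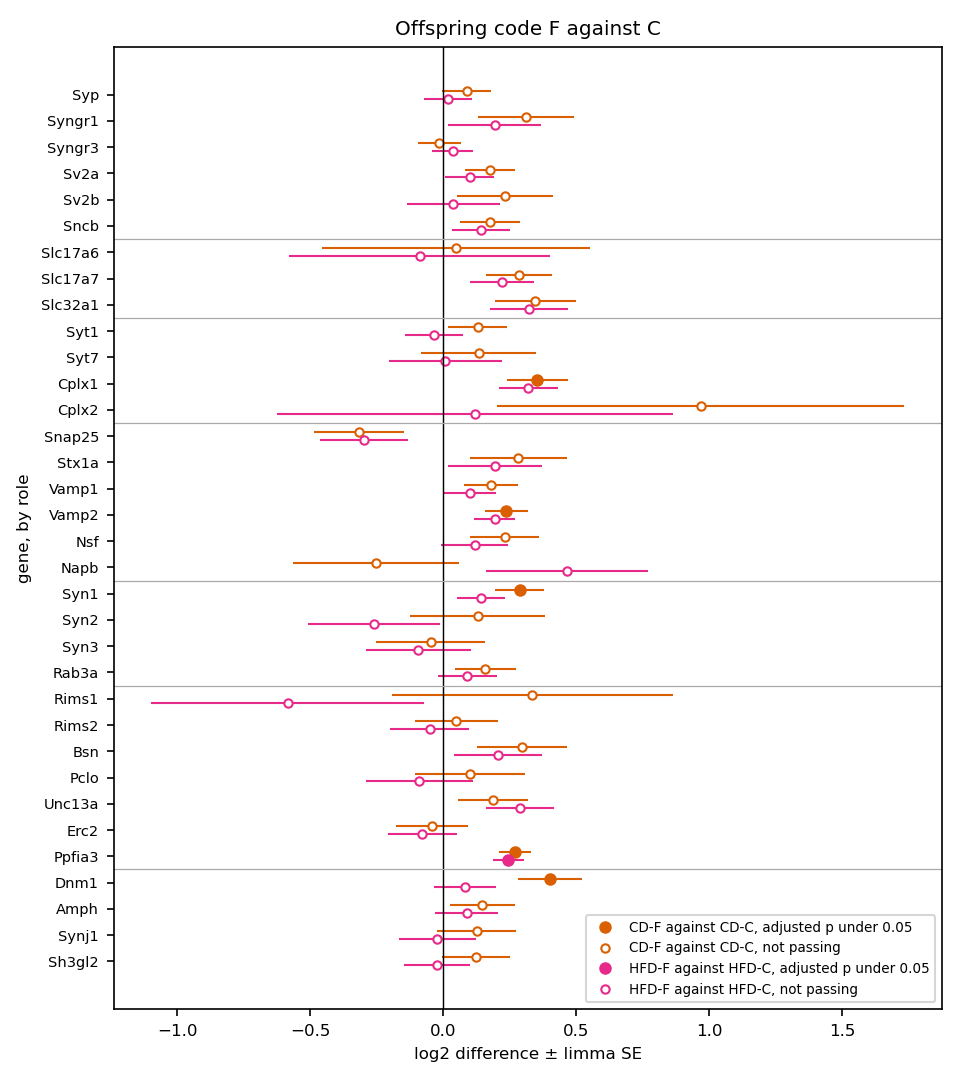
Log2 difference (points) and limma SE (bars) of the 34 genes, by role, in CD-F against CD-C and in HFD-F against HFD-C, with filled points for an adjusted p under 0.05. In CD-F against CD-C 29 points lie to the right of 0, in HFD-F against HFD-C 23, and Ppfia3 alone is filled in both.

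HFD-F was also set against CD-C, the group used above, so that the values share control libraries. Here 2 of 34 members were higher, beside 0.599% of all rows, and 0 were lower, beside 2.1% (2.7% in either direction). Ppfia3 differed by 0.23 (SE 0.0598, limma adjusted p 0.0257), and its ranges did not overlap, with 386 to 461 FPKM in CD-C and 481 to 531 FPKM in HFD-F. Cplx1 stood at 493.3, 533, 310, 443, 368, 597, 462 and 418 FPKM in CD-C and at 633, 632, 724, 544, 463, 612, 546 and 640 FPKM in HFD-F. All 8 HFD-F libraries of Cplx1 lay above the CD-C mean, with overlapping ranges, and the difference was 0.42 (SE 0.115, limma adjusted p 0.0356). Without CD-C library 4 or HFD-F library 6 no member passed, and 1 did without CD-C library 3, 5 or 8 or HFD-F library 1, 3 or 8. With the GC trend removed, Ppfia3 was at 0.17 (adjusted p 0.0717) and Cplx1 at 0.37 (adjusted p 0.0708). With library medians set equal, 147 rows were higher and 224 lower, in place of 96 and 336.

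The maternal code alone was followed by no passing member. In HFD-C against CD-C, 0 members and 0 rows passed in limma, 0 members and 379 rows (2.36%) had an unadjusted p under 0.05, and the members' median was 0.03. FD-C against CD-C had 0 members passing beside 0.00624% of rows higher and 0.193% lower. At an unadjusted p under 0.05 it had 4 members beside 9.54% of rows. These members were Slc17a7 with 0.25, Syn1 with 0.20, Dnm1 with 0.27 and Rims1 with -1.25. Rims1 has a second row, on which the same difference was 0.11 (SE 0.17). In FFD-C against CD-C 0 members passed, beside 0% of rows higher and 0.00624% lower, and the members' median was 0.00. There 1 member and 3.29% of rows had an unadjusted p under 0.05. That member was Rims1 with -1.37, while its second row had 0.05 (SE 0.17). Ppfia3 ran from 412 to 538 FPKM in FD-C and from 387 to 503 FPKM in FFD-C, both overlapping CD-C.

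FFD-C against HFD-C, in which the dam's code differs, also had 0 members and 0 rows passing in limma. At an unadjusted p under 0.05 stood 2 of 34 members, about the share of all rows (956 rows, 5.96%). The 2 were Rims1 with -1.75 (SE 0.513, limma adjusted p 0.761) and Syn2 with -0.65 (SE 0.247, adjusted p 0.761). XX against XY libraries gave 0 passing members, beside 0.0873% of rows higher and 0.025% lower. Here 3 of 34 members had an unadjusted p under 0.05, close to the 8.25% of all rows. The 3 were Sv2a with -0.15 (limma adjusted p 0.466), Cplx2 with -1.09 (adjusted p 0.536) and Vamp1 with -0.12 (adjusted p 0.586).

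A few members divided into a lower and an upper level within several groups. Cplx2, the second complexin gene, was at 60.4 to 130.5 FPKM in 19 libraries and at 566.8 to 1184 FPKM in the other 30, with none between. The lower level held 4 HFD-F, 4 HFD-C, 3 FFD-C, 4 FD-C, 1 CD-F and 3 CD-C libraries, and 13 of the 24 XX and 6 of the 25 XY libraries. Every group thus had libraries on both levels, and its CD-F against CD-C difference of 0.97 had an SE of 0.765 (limma adjusted p 0.449). Rims1, an active zone scaffold that binds Rab3 and calcium channels, was at 17.05 to 94.5 FPKM in 38 libraries and at 220.7 to 334 FPKM in 11. The upper level held 3 CD-C, 3 CD-F, 4 HFD-C and 1 HFD-F libraries, and 0 of FD-C and FFD-C.

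Rims1 stands on 2 rows, and its second row ran from 41.8 to 134 FPKM without such a split, with a difference of -0.05 (SE 0.165) in FFD-C against HFD-C where the first row had -1.75. Napb, which encodes β-SNAP, a cofactor of Nsf, lay at 304 to 530 FPKM in 24 libraries and at 762.5 to 1332 FPKM in 25. The gap between these was 0.52 on the log2 scale, under the 1 used below. The lower level held 1 HFD-F, 5 HFD-C, 6 FFD-C, 3 FD-C, 5 CD-F and 4 CD-C libraries, and the row also names LOC108168731. Its differences were -0.25 in CD-F against CD-C and 0.47 in HFD-F against HFD-C, and neither passed. A gap of at least 1 on the log2 scale, with at least 3 libraries on either side, was found in 2 of 34 members (5.88%), Cplx2 and Rims1, and in 515 of 16029 rows (3.21%). Rows assembled from reads can divide a gene between identifiers, and the part of this in these levels was not tested.

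**Figure D4:**
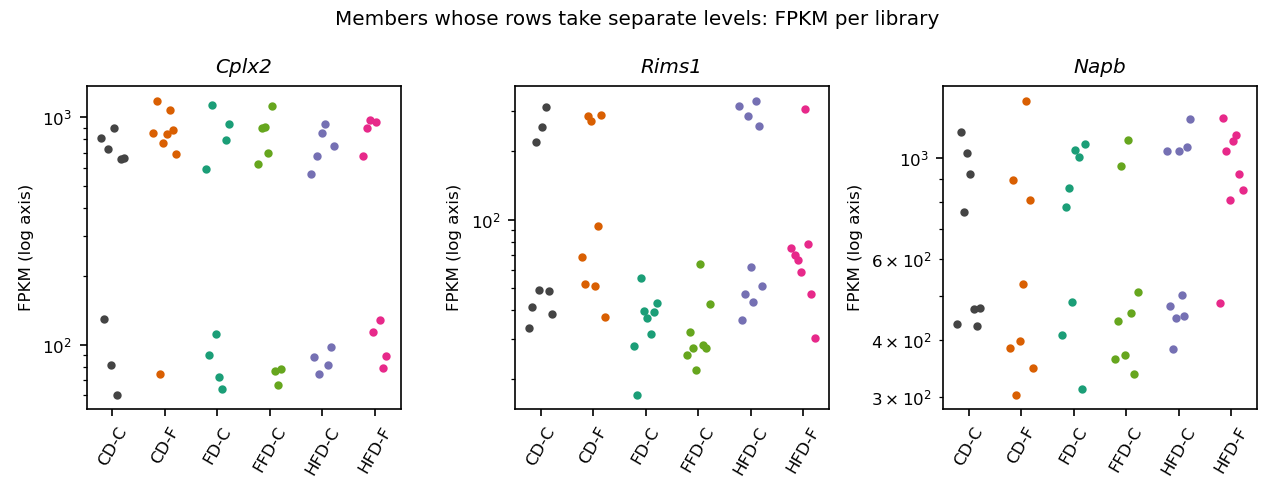
FPKM of Cplx2, Rims1 and Napb in each library (points) of the 6 groups, on log axes. Cplx2 leaves the range between 130.5 and 566.8 FPKM empty, Rims1 that between 94.5 and 220.7 FPKM and Napb that between 530 and 762.5 FPKM. The levels of Cplx2 and Napb cross all groups, and the upper level of Rims1 holds no FD-C or FFD-C library.

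**Figure D5:**
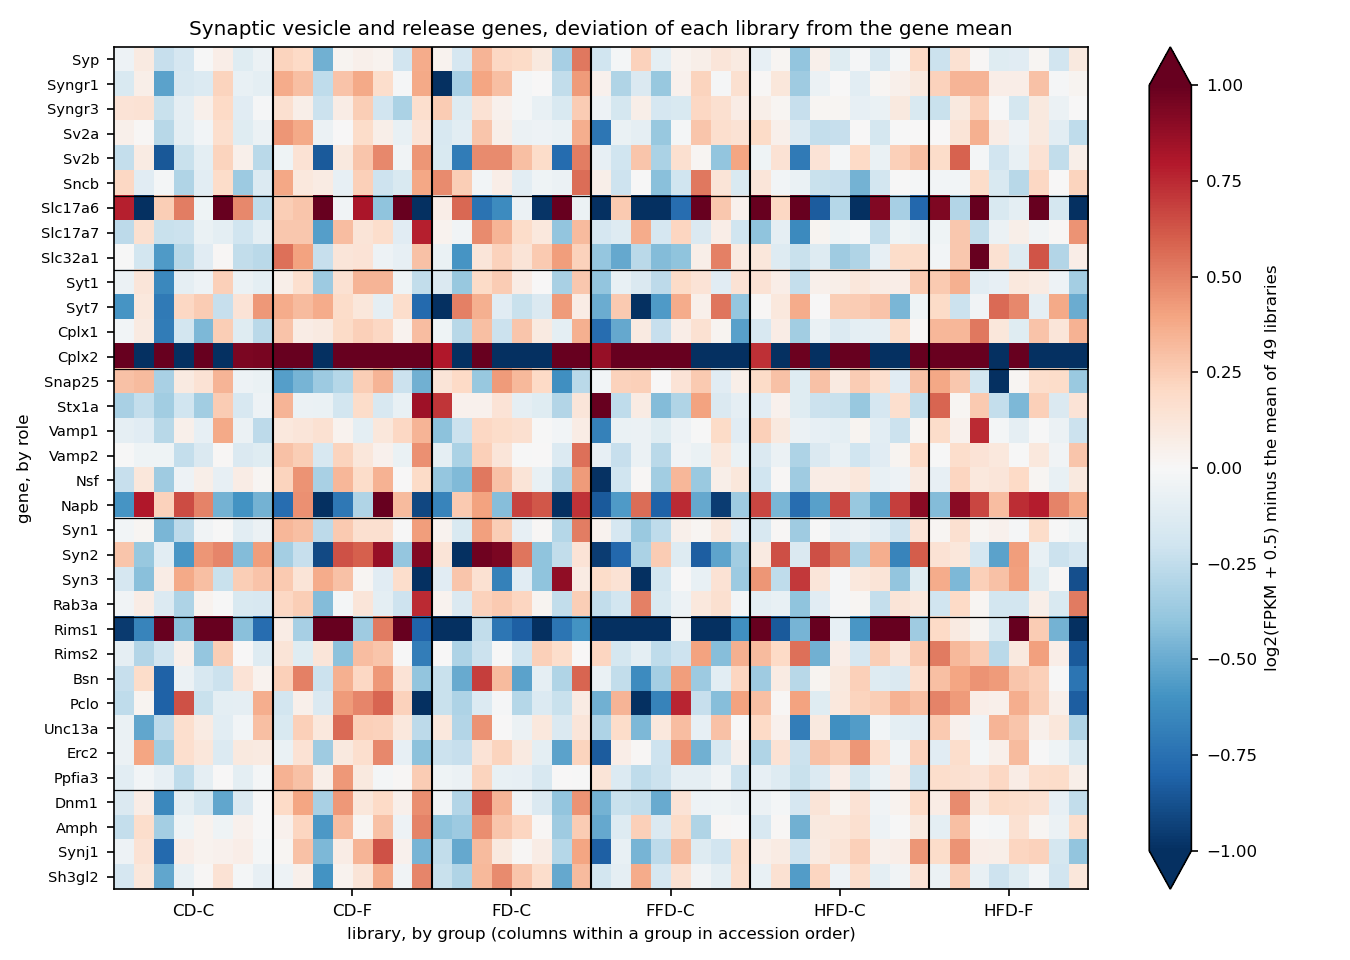
Deviation of each of the 34 genes (rows, by role) from its mean over 49 libraries on the log2 scale, with libraries as columns ordered by group and colours limited to deviations of 1. CD-F columns are mostly red, above the mean. Cplx2 and Napb take high and low levels within every group, and Rims1 within CD-C, CD-F, HFD-C and HFD-F.

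Counted by library, whole sets of members stood high or low in the same mice. The number of the 34 genes above their mean over all libraries ran from 5 to 21 in CD-C (median 11) and from 10 to 31 in CD-F (median 25.5). It ran from 7 to 30 in FD-C (median 16.5), from 4 to 21 in FFD-C (median 15), from 6 to 24 in HFD-C (median 17) and from 11 to 30 in HFD-F (median 21). CD-C library 3 had 5 of 34 above the mean and a median deviation of -0.30 on the log2 scale. CD-F library 3 stood apart from its group with 10 of 34 and a median of -0.24, and HFD-C library 3 had 6 of 34 and -0.23.

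Other presynaptic genes were read from 4 lists of further fusion and priming, active zone and Rab3, vesicle membrane and transporter, and endocytosis genes, 104 in all, of which 101 were tested. In CD-F against CD-C, 9 were higher and 7 lower, with a median of 0.07, beside 4.54% of all rows higher and 8.88% lower. The lower share was no larger than that of all rows. Among the fusion genes, Syt11 was higher by 0.20, while the endosomal SNARE gene Vamp4 fell by 0.23 (limma adjusted p 0.0094). In the active zone list, Rims3 was higher by 1.46 (SE 0.393), and Ppfia2, the paralog of Ppfia3, fell by 0.58 (SE 0.173, adjusted p 0.0206). In the membrane list, Atp6v0a1, a subunit of the proton pump, was higher by 0.30 and Scamp5 by 0.27, whereas the vesicular monoamine transporter gene Slc18a2 fell by 0.67 and Scamp1 by 0.19.

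In the endocytosis list, Pacsin1, a partner of dynamin that stands on 2 rows, was higher by 0.34, the clathrin uncoating cofactor gene Gak by 0.35, the adaptor subunit gene Ap2a1 by 0.34 and Synj2 by 0.41. Picalm, Fcho2 and Itsn2, which act in the assembly of clathrin coats, fell by 0.24, 0.54 and 0.39. The 9 higher genes had transcripts of 47% to 59.3% GC and the 7 lower ones of 39.6% to 47.6%, the same order as in the module. In HFD-F against HFD-C the passing genes were Rab3il1, a Rab3-interacting gene, higher by 0.45 (SE 0.0961, limma adjusted p 0.0138), and Picalm, which fell by 0.23 (adjusted p 0.0483). In HFD-F against CD-C, Rab3il1 was higher by 0.35 and Syt6, on 2 rows, by 0.86. None of the 101 passed in the other 6 comparisons.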

How the data were processed

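Hippocampal RNA of 49 mice was read from a table of FPKM (fragment counts scaled for transcript length and library size) that the authors deposited. Libraries followed BGI-500 protocols, per the labels' protocols. Per the submitters' processing notes, Trimmomatic 0.38, HISAT2, StringTie 1.3.4d and GRCm38.p6 were used. For read depth, annotation and strand the setting is not given in the sources used here, so no counting error can be given, and genes on several rows or with overlapping or near-identical partners are uncertain.

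Rows averaging 0.5 FPKM or more were tested on log2(FPKM + 0.5), a scale that understates changes of low genes, with limma 3.58.1 in R 4.3.3 (lmFit, eBayes with trend, two-sided). All 49 libraries entered 1 model with terms for group and the XX or XY mark, over 9 comparisons. P-values were adjusted by Benjamini-Hochberg over 16029 rows, with adjusted p under 0.05 as the threshold. They set a difference against the spread between mice, each taken as independent, and not against the spread between title prefixes. The fit was tested on simulated data with independent normal values for each row and library. Those data held no GC trend, prefix correlation or separate levels, so the test says nothing about these. GC content came from the longest GENCODE transcript of each gene for GRCm38 (94.7% of rows), and trends were removed per library by lowess with a span of 0.3.

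Members and lists were chosen with earlier results of these data known. All members were accounted for. From the other presynaptic lists, up to 4 passing genes per direction with the smallest p were named, except 1 that is not reported here. The 2 passing members with the smallest p in a comparison were given in every library. Alternatives were other pseudocounts, filters, scalings and row sums, trend removal, other fits and leaving out libraries.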

Additional observations from a re-analysis of the deposited data

Results flagged for a closer look

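In 20 of 204 sets of values (1 gene in 1 group), the highest or lowest library lay far from the nearest other one by Dixon's ratio. That is 9.8%, beside about 5%, or 1 in 20, for independent values with a normal spread. Members moved together within libraries and some lay on separate levels, so this is no test of an excess. CD-C library 3 was the lowest of its group for Syt1 at 1980 FPKM, with the next at 2889, and for Synj1 at 364 FPKM, with the next at 602. HFD-C library 3 was the lowest for Syt1 at 2619 FPKM, Sv2b at 40.71 FPKM and Sh3gl2 at 135 FPKM. CD-C library 6 was the highest of its group for Stx1a at 19.82 FPKM and for Vamp1 at 13.06 FPKM. FFD-C library 1 was the highest for Stx1a at 51.91 FPKM, with the next at 22.05, and the lowest for Vamp1 at 6.049 FPKM. CD-F library 8 was the highest for Stx1a at 30.25 FPKM and the lowest for Syn3 at 16.47 FPKM.

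The other cases were single. Ppfia3, the member called most often, was lowest in CD-C library 4 at 386.4 FPKM, with the next at 428.6, and highest in FD-C library 3 at 537.8 FPKM, with the next at 462.6. Stx1a was highest in FD-C library 1 at 27.52 FPKM, Slc17a7 in CD-C library 2 at 1564 FPKM, Sv2b in HFD-F library 2 at 100.5 FPKM and Vamp1 in HFD-F library 3 at 17.03 FPKM. Pclo was lowest in HFD-F library 8 at 22.14 FPKM. Cplx2 in CD-F library 3, at 74.55 FPKM with the next at 689.6, and Rims1 in HFD-F library 5, at 305.7 FPKM with the next at 78.46, are the lone library of their group on the other level of these genes.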

How the results depend on the processing

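The count of 5 members higher in CD-F than in CD-C became 2 with no filter on low rows, 3 with quantile normalization, 3 without the CD-C libraries that hold Alb, 1 with the groups compared alone, and 0 with means per title prefix, with the GC trend removed or with GC and length trends removed. Leaving out each library in turn gave 1 to 6. Smaller changes of this count are not listed. Apart from leaving out single libraries, 15 alternatives were run. Ppfia3 passed in 12 of them, Dnm1 in 11, Syn1 in 10, Cplx1 in 8 and Vamp2 in 6. The count of 1 in HFD-F against HFD-C became 0 with means per title prefix, with the GC trend removed or with GC and length trends removed, and ran from 0 to 1 with libraries left out. The count of 2 in HFD-F against CD-C became 1 with no filter, with the length trend removed, with GC and length trends removed, with the groups compared alone or with a random block for title prefix, and 0 with the GC trend removed, with means per title prefix or without the CD-C libraries that hold Alb. Leaving out libraries gave 0 to 2. The other 15 counts of members, 0 each, were 0 under every alternative run, and no called difference changed sign. In CD-F against CD-C, 728 rows were higher and 1423 lower in all, which became 339 and 474 with the GC trend removed, 457 and 969 with the groups alone, 104 and 777 with prefix means and 381 and 853 without the Alb libraries. Means per prefix leave 23 values for 49 libraries, and the correlation within prefixes was 0.0356. The cause of the other changes was not tested. The labels give no replicate numbers, and CD-C and CD-F share no title prefix. HFD-C and HFD-F share 3 prefixes, and with prefix as a random block 1 member was higher in HFD-F, as without it. Read depth is not given in the sources used here, so what depth limits cannot be computed.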

Other observations

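Rab3a stands on 2 rows. On the second, HFD-C libraries 5 and 6 were at 37.4 and 122 FPKM while every other library was at 273 FPKM or above, and on the first row no library stood apart in this way.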
